A study of Mus musculus with 6 samples.

Results

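The genes described here are the enzymes, transporters and regulators of glycolysis and of the pentose phosphate pathway, 34 genes chosen by name. Each was read from the probe that carries its symbol in the platform annotation (the older symbol Pkm2 was allowed for Pkm), and the probe with the highest mean over all arrays was taken where a gene had several. Of the 34 genes, 30 had a probe and 27 passed a filter that kept the brighter 50% of probes, among 12382 genes kept of 19057 with a probe. No probe was paired with Hk2, Gpi1, Eno1 or G6pdx in the annotation used here, and Hk1, Slc16a1 and Pgd lay below the filter. G6pdx encodes the enzyme that commits glucose to the pentose phosphate pathway, so the oxidative branch was measured only in part.

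RNA came from antigen presenting cells of the lungs of female C57BL/6 mice and was hybridised to Illumina mouse arrays, 6 in all. Wild type (WT) mice that breathed room air, WT mice given cigarette smoke and Spp1-/- mice given cigarette smoke had 2 arrays each, and the smoke exposure lasted 4 months. Spp1 encodes osteopontin, a secreted matrix and cytokine protein. The series as used here holds no air-exposed Spp1-/- group. Neither the age of the mice nor the method of cell isolation is given in the sources used here. The labels do not tie the arrays to individual mice, so each p-value reflects the spread of these samples alone, and that spread may be technical.

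Values are log2 intensities as deposited. The lowest was 6.62, the highest 16.01 and the median of all probes 7.26, so a probe near 7 is dim. They compare arrays for the same probe and not the levels of different genes. Replicate arrays correlated across probes at a Pearson r of 0.977 in WT air, 0.992 in WT smoke and 0.994 in Spp1-/- smoke. Of 16 macrophage and antigen presenting cell genes, 15 had a probe and 14 passed the filter. The probes of Lyz2 (lysozyme), Mrc1 (the mannose receptor) and Adgre1 (F4/80) were far above the median on all arrays, at 15.41 to 15.74, 13.35 to 14.23 and 12.06 to 13.12. Those of Fcgr1 (8.60 to 9.17), the alveolar macrophage gene Siglecf (7.39 to 7.72) and the dendritic cell genes Flt3 (7.23 to 7.34) and Xcr1 (7.07 to 7.45) were dimmer, and Itgam was below the filter.

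Glycolysis splits glucose into pyruvate in the cytosol and yields ATP and NADH without oxygen. Glucose enters through transporters such as that of Slc2a1, is phosphorylated by hexokinases, and is carried through the aldolase, Gapdh, Pgk1, Pgam1 and enolase steps to pyruvate kinase, after which lactate dehydrogenase may turn pyruvate into lactate. The pentose phosphate pathway branches off at glucose 6-phosphate and supplies NADPH and ribose, and its non-oxidative enzymes connect it back to glycolysis. Macrophages are known to raise glycolysis on inflammatory activation, and many glycolytic genes are known targets of hypoxia-inducible factor 1 (HIF-1), whose oxygen-sensitive subunit is the product of Hif1a.

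HIF-1 is known to bind DNA at a short core, written here as ACGTG or GCGTG and searched on both strands. Promoters were taken from RefSeq (build GRCm38.p6) as 250 bases before to 50 after each annotated start, and all 34 genes had at least 1. They are shown because several of these genes were higher together in smoke. In the lines below, capitals mark each match, and overlapping matches, such as both strands of CACGTG, are joined.
Slc2a1, chr4:119108495-119108794, + strand: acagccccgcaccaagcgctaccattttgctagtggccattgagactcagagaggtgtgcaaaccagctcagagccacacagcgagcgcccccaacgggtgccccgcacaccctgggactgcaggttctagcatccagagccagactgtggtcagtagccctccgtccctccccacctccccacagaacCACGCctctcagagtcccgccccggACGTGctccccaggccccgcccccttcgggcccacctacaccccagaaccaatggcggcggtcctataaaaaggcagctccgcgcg
Aldoc, chr11:78322823-78323122, + strand: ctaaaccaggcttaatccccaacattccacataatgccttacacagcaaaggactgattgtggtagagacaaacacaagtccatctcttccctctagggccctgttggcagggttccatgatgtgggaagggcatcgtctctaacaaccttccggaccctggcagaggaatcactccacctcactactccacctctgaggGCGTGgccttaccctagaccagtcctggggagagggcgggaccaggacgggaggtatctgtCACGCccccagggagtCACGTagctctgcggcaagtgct
Pgk1, chrX:106186850-106187149, + strand: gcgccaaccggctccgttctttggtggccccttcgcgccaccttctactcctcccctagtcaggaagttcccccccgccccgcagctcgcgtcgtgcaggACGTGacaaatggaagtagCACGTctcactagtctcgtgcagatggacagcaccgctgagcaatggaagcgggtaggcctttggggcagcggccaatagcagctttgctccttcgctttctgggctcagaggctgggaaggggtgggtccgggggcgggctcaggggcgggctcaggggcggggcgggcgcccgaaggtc
Ldha, chr7:46845554-46845853, + strand: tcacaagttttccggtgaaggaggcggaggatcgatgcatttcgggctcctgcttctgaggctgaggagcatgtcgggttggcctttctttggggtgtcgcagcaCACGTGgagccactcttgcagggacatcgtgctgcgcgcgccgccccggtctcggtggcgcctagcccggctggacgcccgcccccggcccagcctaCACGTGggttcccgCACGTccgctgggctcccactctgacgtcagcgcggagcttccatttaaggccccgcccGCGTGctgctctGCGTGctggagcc
Eno2, chr6:124769624-124769923, - strand: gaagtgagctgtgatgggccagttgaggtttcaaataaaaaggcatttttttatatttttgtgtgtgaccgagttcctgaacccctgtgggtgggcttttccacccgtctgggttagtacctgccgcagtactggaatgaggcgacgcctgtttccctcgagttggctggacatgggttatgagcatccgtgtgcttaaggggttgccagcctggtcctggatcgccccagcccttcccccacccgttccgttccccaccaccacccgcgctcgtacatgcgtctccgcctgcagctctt

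The Slc2a1 promoter held 2 sites, the first Aldoc promoter 3, the Pgk1 promoter 2 and the first Ldha promoter 5, while the Eno2 promoter held none. ACGTG was present in a promoter of 7 of the 8 members that were higher in WT smoke (87.5%), of 7 of the 19 kept members that were not called (36.8%) and of 2758 of the 9963 kept genes with a promoter (27.7%). GCGTG was present for 5 of the 8 (62.5%), 12 of the 19 (63.2%) and 51.0% of the kept genes. With either motif counted, 7 of the 8 called (87.5%), 17 of the 19 uncalled (89.5%), 62.7% of the kept genes and 46.7% of the 27025 genes in the table held at least 1. A match is a run of letters and shows no binding.

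The first comparison set WT smoke against WT air. Transcripts of 1 glucose transporter, 1 hexokinase, 1 aldolase, 4 lower glycolytic enzymes and 1 lactate dehydrogenase subunit were higher in smoke. Called members, at a limma p below 0.05 after Benjamini-Hochberg adjustment over all kept genes, were Slc2a1, Hk3, Aldoc, Gapdh, Pgk1, Pgam1, Eno2 and Ldha, all of them higher. These were 8 of the 27 kept members (29.6%), against 11.1% of all 12382 kept genes called higher. Of the kept members 0 were called lower, against 10.3% of all kept genes, and 21.4% of kept genes were called in either direction. At an unadjusted p under 0.05, 11 of the 27 kept members were higher, against 19.7% of all kept genes, and 2 were lower, against 15.1%. The median log2 difference was 0.39 over the 27 kept members and 0.045 over all kept genes. The arrays of both groups did not overlap for 17 of the 27 kept members (63.0%) and for 59.6% of all kept genes, so a lack of overlap alone sets no member apart. The median was 0.26 over all 30 members with a probe, with the same 8 calls.

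**Figure D1:**
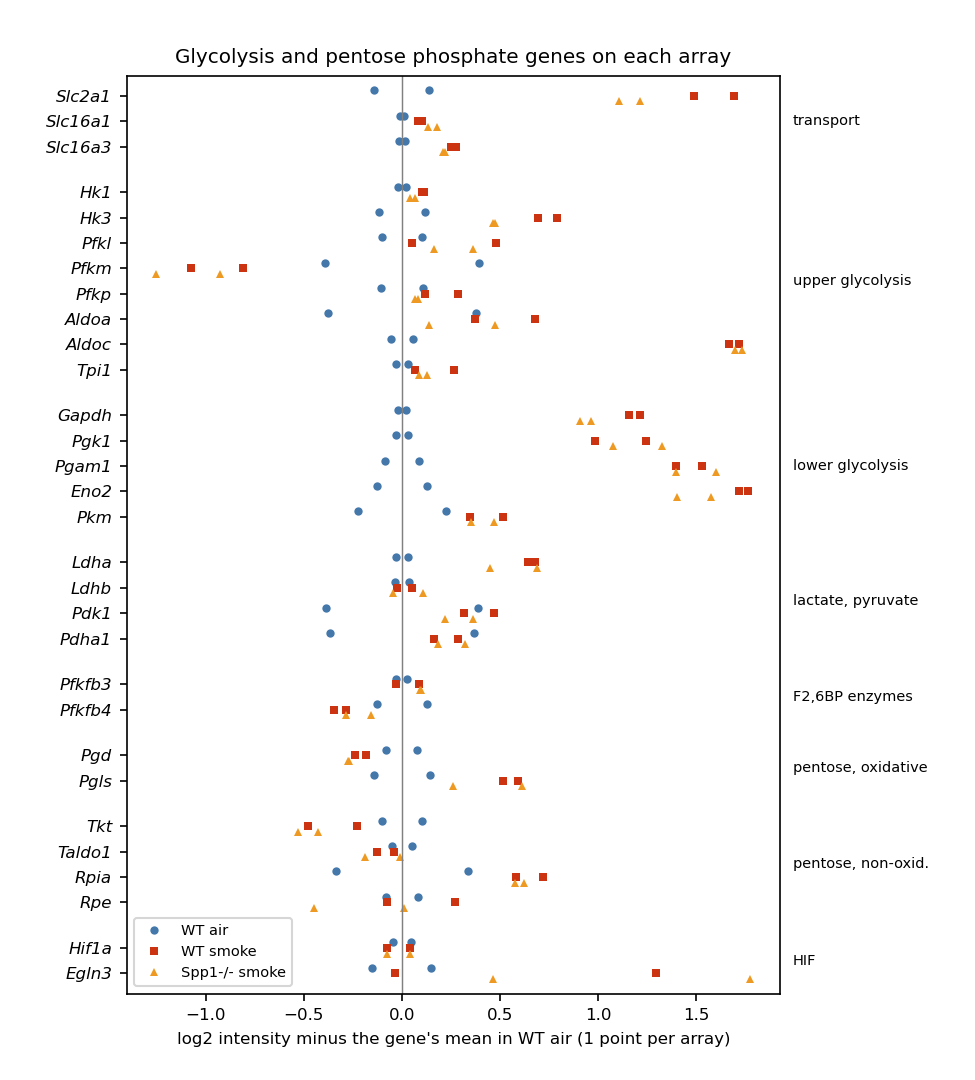
Log2 intensity of each of the 30 members with a probe on each of the 6 arrays, minus that gene's mean in WT air (horizontal axis, log2 units), with genes in rows by role and 1 point per array (circles WT air, squares WT smoke, triangles Spp1-/- smoke). Slc2a1, Aldoc, Pgam1 and Eno2 stand more than 1 unit to the right on all smoke arrays, Egln3 does so on only 1 array of each smoke group, and Pfkm stands farthest to the left.

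Slc2a1 encodes GLUT1, the glucose transporter of most proliferating and activated cells. It stood at 9.50 and 9.78 in WT air, 11.13 and 11.34 in WT smoke, and 10.86 and 10.75 in Spp1-/- smoke. Both smoke groups lay above both air arrays without overlap. The WT smoke value was 3.01-fold that of WT air (log2 difference 1.59 ± 0.14, SE; limma adjusted p = 0.00323), rank 138 from the top among 12382 genes. The lactate and pyruvate transporters of the list were dim. Slc16a3 (MCT4, a lactate exporter) stood at 7.64 ± 0.02 (SD, n = 2) in WT air and 7.90 ± 0.02 in WT smoke and was not called (limma adjusted p = 0.104), and Slc16a1 (MCT1) lay between 7.02 and 7.21 on all arrays.

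Among the genes of upper glycolysis, 2 of 7 kept members were higher. Aldoc (aldolase C) stood at 9.48 and 9.37 in WT air and 11.09 and 11.14 in WT smoke, a 3.23-fold difference (log2 1.69 ± 0.10; limma adjusted p = 0.00160). Its second, dimmer probe differed by 0.62 in the same direction. Hk3, the hexokinase most typical of myeloid cells, stood at 10.17 and 10.40 in WT air and 10.98 and 11.07 in WT smoke (log2 0.74 ± 0.12; limma adjusted p = 0.0138). Aldoa, the main aldolase of most tissues, read 11.96 and 12.71 in WT air and 12.70 and 13.01 in WT smoke. It was not called (limma adjusted p = 0.270), and its log2 difference ranged from 0.15 to 0.90 with each array left out in turn. Tpi1, which interconverts the 2 triose phosphates, stood at 12.23 ± 0.04 in WT air and 12.39 ± 0.14 in WT smoke (limma adjusted p = 0.371).

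The phosphofructokinase genes, for the step that commits sugar to glycolysis, were not called. Pfkl, the liver-type subunit, stood at 10.58 ± 0.15 in WT air and 10.84 ± 0.31 in WT smoke. Pfkp, the platelet-type subunit, stood at 7.53 ± 0.15 and 7.73 ± 0.12. Pfkm, the muscle-type subunit, read 9.03 and 9.82 in WT air against 8.35 and 8.62 in WT smoke, without overlap, yet the difference of -0.94 ± 0.29 was not called (limma adjusted p = 0.0789). With each array left out in turn the difference ranged from -1.34 to -0.55. Pfkm was called lower with a stricter filter that kept the brighter 25% of probes (limma adjusted p = 0.0413). Of its other probes, 1 differed by -0.72 and 1 by -0.014.

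Lower glycolysis, the ATP-yielding stage of the pathway, had the most calls by role, with 4 of 5 kept members higher and a median difference of 1.18. Gapdh, the glyceraldehyde 3-phosphate dehydrogenase often used as a reference gene, stood at 12.64 and 12.68 in WT air, 13.87 and 13.82 in WT smoke, and 13.62 and 13.57 in Spp1-/- smoke. Its arrays differed by under 0.1 within each group, and the WT smoke value was 2.27-fold that of air (log2 1.18 ± 0.09; limma adjusted p = 0.00254). Pgk1 (phosphoglycerate kinase) stood at 11.09 and 11.15 in WT air and 12.36 and 12.10 in WT smoke (log2 1.11 ± 0.14; limma adjusted p = 0.00788), while its 2 dim probes differed by 0.25 and 0.092. Pgam1 (phosphoglycerate mutase) stood at 8.13 and 7.96 against 9.58 and 9.45, a 2.76-fold difference (limma adjusted p = 0.00307), and its second probe differed by 0.76. Gapdh and Pgam1 have many processed pseudogenes in the mouse, and whether a probe also reads their transcripts was not tested.

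Eno2 encodes enolase 2, known as the enolase of neurons and also expressed in other cells. It stood at 7.82 and 7.56 in WT air, 9.45 and 9.41 in WT smoke, and 9.09 and 9.27 in Spp1-/- smoke. Its log2 difference in WT smoke, 1.74 ± 0.13, was the largest among the members (3.34-fold; limma adjusted p = 0.00239; rank 107 of 12382 genes). Eno2, Tpi1 and Gapdh lie on chromosome 6, with 2 protein-coding genes between Eno2 and Tpi1 and 18 between Tpi1 and Gapdh, and Tpi1 was the one not called. Pkm, the gene of pyruvate kinase M whose splice forms the probe was not shown to separate, read 11.78 and 12.23 in WT air and 12.35 and 12.52 in WT smoke, without overlap (log2 0.43 ± 0.18; limma adjusted p = 0.157). With each array left out in turn the Pkm difference ranged from 0.21 to 0.66.

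Ldha, the lactate dehydrogenase subunit that favours lactate formation, stood at 12.56 and 12.49 in WT air, 13.20 and 13.17 in WT smoke, and 12.98 and 13.21 in Spp1-/- smoke. Its WT smoke value was 1.58-fold that of air (log2 0.66 ± 0.12; limma adjusted p = 0.0185). Ldhb, the other main subunit, stood at 7.84 ± 0.05 and 7.85 ± 0.05, with a 95% interval of the difference from -0.26 to 0.28. Pdk1, a kinase that inactivates pyruvate dehydrogenase, and Pdha1, a subunit of that enzyme, overlapped between the groups (limma adjusted p = 0.371 and 0.605). Both were lower on WT air replicate 2, at 8.17 and 10.89, than on WT air replicate 1, at 8.95 and 11.63. The enzymes that set fructose 2,6-bisphosphate, an activator of phosphofructokinase, were not called either. Pfkfb3 stood at 7.40 ± 0.04 and 7.43 ± 0.08. Pfkfb4 stood at 13.83 ± 0.18 and 13.52 ± 0.04 on a bright probe (limma adjusted p = 0.148), while its other probe had a mean of 7.11.

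The calls rested unequally on single arrays. Slc2a1, Aldoc, Gapdh, Pgam1 and Eno2 stayed called when any 1 of the 6 arrays was left out. Hk3 and Ldha lost their calls without WT smoke replicate 1 (limma adjusted p = 0.0744 and 0.108) and without WT smoke replicate 2 (limma adjusted p = 0.0873 and 0.0937), and Pgk1 without WT smoke replicate 1 (limma adjusted p = 0.0555). That left 5 called members without WT smoke replicate 1 and 6 without WT smoke replicate 2. Over all kept genes the calls fell from 2645 to 743 and 925 in the same fits, and to 1489 without either Spp1-/- smoke array.

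**Figure D2:**
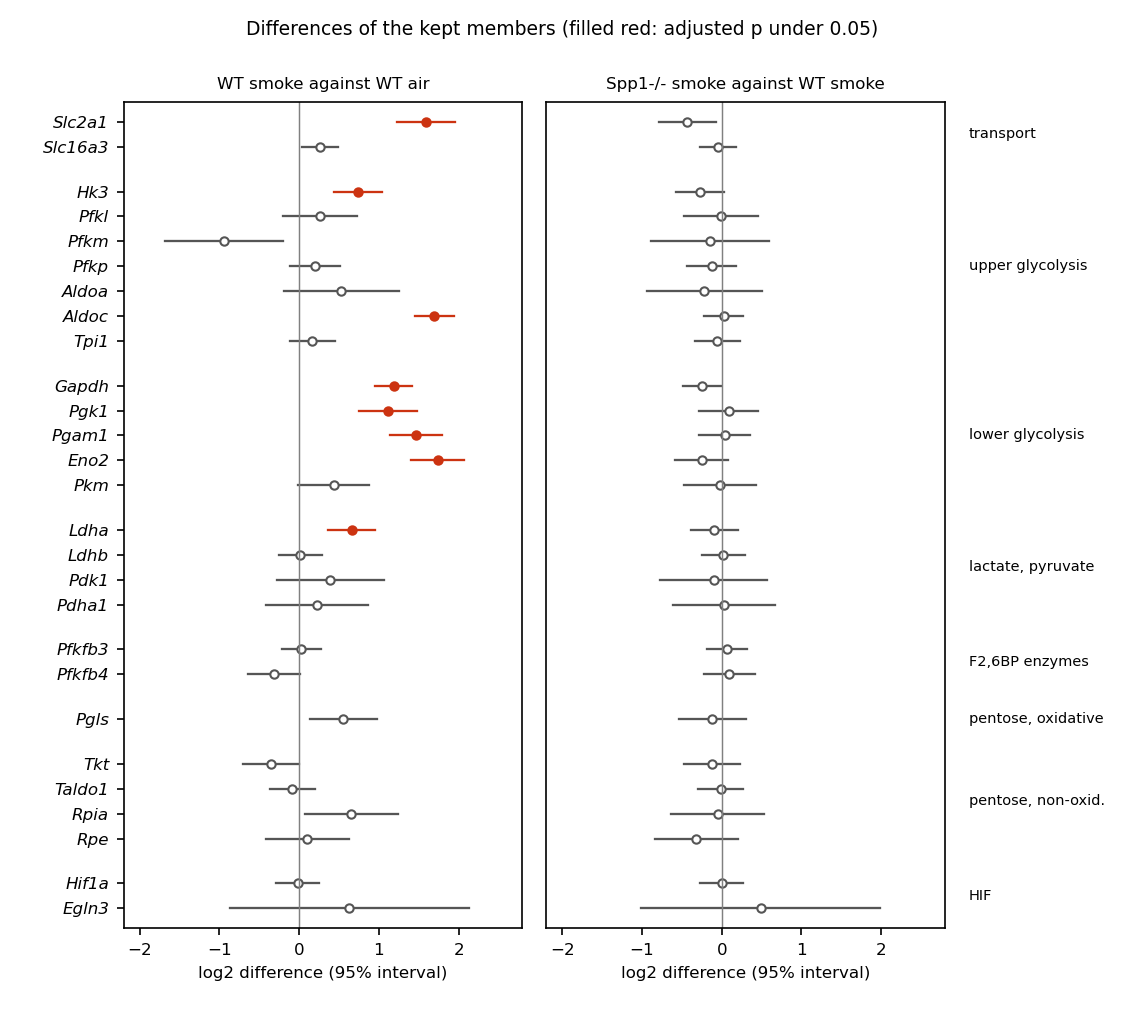
Log2 differences of the 27 kept members (points) with 95% intervals (lines) for WT smoke against WT air on the left and Spp1-/- smoke against WT smoke on the right, with filled red points for an adjusted p under 0.05. On the left the 8 called members lie between 0.66 and 1.74, and on the right no member is called and the values lie between -0.43 and 0.49.

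No pentose phosphate member was called in smoke against air with all arrays and the brightest probes, and the members differed in sign. Pgls, the 6-phosphogluconolactonase of the oxidative branch, read 12.17 and 12.45 in WT air against 12.90 and 12.83 in WT smoke, without overlap (log2 0.55 ± 0.17; limma adjusted p = 0.0753), and with the mean of its probes it was called higher (log2 0.39, limma adjusted p = 0.0399). Rpia, which makes ribose 5-phosphate, read 10.92 and 10.25 against 11.17 and 11.31 (log2 0.65 ± 0.23, limma adjusted p = 0.111). Its difference ranged from 0.31 to 0.99 with each array left out in turn. Tkt (transketolase), which links the pathway to glycolysis, read 12.83 and 13.03 in WT air against 12.70 and 12.45 in WT smoke (log2 -0.35 ± 0.14; limma adjusted p = 0.141). Taldo1 (transaldolase) stood at 14.56 ± 0.07 and 14.47 ± 0.06, and Rpe, an epimerase, overlapped between groups. Pgd, the second dehydrogenase of the oxidative branch, was read only by a dim probe, at 7.43 ± 0.11 in WT air and 7.22 ± 0.04 in WT smoke, below the filter. The median difference over the 5 kept pentose phosphate members was 0.099.

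The oxygen-sensing members gave no common pattern. Hif1a was read by dim probes only, and its brightest lay between 7.28 and 7.40 on all arrays. Egln3, a prolyl hydroxylase that marks HIF-1 alpha for degradation and is itself a known HIF target, read 7.15 and 6.85 in WT air, 6.96 and 8.29 in WT smoke, and 8.77 and 7.46 in Spp1-/- smoke. Replicates within each smoke group thus differed by over 1 on the log2 scale, and Egln3 was not called (limma adjusted p = 0.531). Its WT air mean was below the brightness filter of 7.27, which it passed through the smoke arrays. Of its other 2 probes, which had means of 7.36 and 7.03, neither differed by more than 0.1 between groups.

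**Figure D3:**
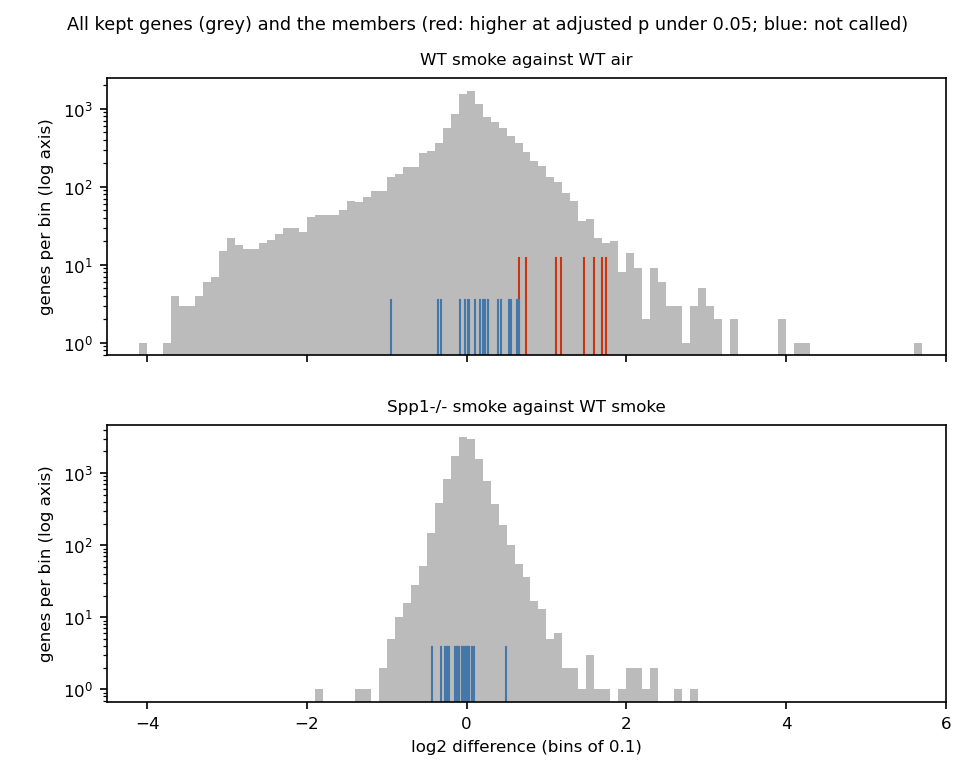
Histograms of the log2 differences of all 12382 kept genes (grey, bins of 0.1, counts on a log axis), with the 27 kept members as vertical lines (red called higher, blue not called), for WT smoke against WT air above and Spp1-/- smoke against WT smoke below. In the upper panel the 8 red lines lie between 0.66 and 1.74, and in the lower panel the members lie within the bulk of all genes, the farthest being Egln3 at 0.49.

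Further lists of glucose metabolism held calls in both directions, to be read against the 21.4% of all kept genes called in either direction. On a list of 32 further glucose transporters and glycolytic or gluconeogenic genes, 17 were kept, 3 were higher and 1 was lower in WT smoke (23.5% called), with a median difference of 0.069. Slc2a3 (GLUT3), a high-affinity glucose transporter, was lower, at 9.65 ± 0.40 against 11.19 ± 0.32 in air (log2 -1.54, limma adjusted p = 0.0196), opposite to Slc2a1. Slc2a6, a transporter of lysosomal membranes, was higher (log2 0.73, limma adjusted p = 0.0379), as was Minpp1, an inositol phosphate phosphatase (log2 0.92, limma adjusted p = 0.0101). With the mean of its probes Minpp1 differed by only 0.17 (limma adjusted p = 0.189). Gpd2, the mitochondrial glycerol 3-phosphate dehydrogenase that passes cytosolic reducing power to the respiratory chain, was also higher (log2 1.07, limma adjusted p = 0.00744). Of 7 kept genes for pyruvate entry into mitochondria, 2 were higher (28.6%): Pdk4, another pyruvate dehydrogenase kinase (log2 1.40, limma adjusted p = 0.0343), and Dld, a subunit of the dehydrogenase complex (log2 0.78, limma adjusted p = 0.0435).

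Of 6 kept genes for further pentose and NADPH supply, 1 was called (16.7%), H6pd, the glucose 6-phosphate dehydrogenase of the endoplasmic reticulum, which was lower at 10.62 ± 0.24 against 11.71 ± 0.26 in air (limma adjusted p = 0.0195). Of 7 kept glycogen genes 2 were higher and 2 lower (57.1% called). Ugp2, which makes the glucose donor UDP-glucose, was higher (log2 0.78, limma adjusted p = 0.0170), as was Ppp1r3b, a glycogen-targeting phosphatase subunit (log2 1.70, limma adjusted p = 0.0309). Its relative Ppp1r3c (log2 -3.67, limma adjusted p = 0.00128) and the phosphorylase gene Pygb (log2 -0.68, limma adjusted p = 0.0403) were lower.

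On a list of 24 genes of the HIF pathway and known hypoxia targets, 19 were kept, 1 was higher and 3 were lower (21.1% called), with a median of -0.047. Vegfa, a growth factor for vessels and a known HIF target, stood at 9.90 ± 0.26 in air and 8.35 ± 0.05 in smoke (log2 -1.55, limma adjusted p = 0.00492). Arnt, the constant partner of Hif1a, changed by -0.94 (limma adjusted p = 0.0128) and P4ha1, a collagen prolyl hydroxylase, by -0.74 (limma adjusted p = 0.0425). Hmox1, heme oxygenase 1, was higher (log2 0.99, limma adjusted p = 0.0175). With the mean of a gene's probes, Arnt changed by only -0.21 (limma adjusted p = 0.286) and P4ha1 by -0.29 (limma adjusted p = 0.119). Without WT smoke replicate 1, the lists kept 0 calls for transporters and isozymes, 0 for pyruvate entry, 0 for pentose and NADPH supply, 1 for glycogen (Ppp1r3c) and 1 for the HIF list (Vegfa). Without WT smoke replicate 2 they kept 1, 0, 0, 1 and 1. Without either Spp1-/- array, pyruvate entry kept 0 and glycogen 1. Of the 15 alternative fits, Ppp1r3c and Vegfa stayed called in all 15, Gpd2 in 14, Slc2a3, H6pd and Hmox1 in 13, and Minpp1 and Arnt in 12. Ugp2 stayed called in 10, Pdk4 and Ppp1r3b in 9, Slc2a6 in 6, and Dld, Pygb and P4ha1 in 5. Slc2a6 lost its call whichever of the 6 arrays was left out. Leaving out either Spp1-/- array gave the same values as the fit on the compared groups alone, so these are not separate checks. With the replicate number as a block, Dld (limma adjusted p = 0.0758) and Pygb (limma adjusted p = 0.0517) lost theirs.

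Marker genes of other cells moved with the same contrast, and in these bulk samples fewer cells of a type and less RNA per cell cannot be told apart. The summed intensity of 17 lung epithelium genes in WT smoke was 0.30 to 0.37 times the WT air mean, that of 13 endothelium genes 0.22 to 0.25 times, and that of 14 fibroblast and smooth muscle genes 0.21 to 0.25 times. The 6 B cell genes stood at 0.22 to 0.24 times, the 10 T and NK cell genes at 0.28 to 0.39 times and 4 erythroid genes at 0.16 to 0.35 times. The 7 neutrophil genes stood at 0.76 to 0.77 times but went both ways. Of the 6 kept neutrophil genes 1 was called higher and 1 lower (33.3% called), with log2 differences from -1.74 to 1.72. Of the kept genes on these lists, 12 of 16 epithelium genes, 10 of 12 endothelium genes and 12 of 12 fibroblast and smooth muscle genes were called lower. Among all kept genes 10.3% were called lower. The sum of 15 macrophage and antigen presenting cell genes was 0.97 times the air mean on both WT smoke arrays, but Lyz2 alone made up 42.7% to 53.1% of that sum on the 6 arrays. Without Lyz2 the sum was 0.93 and 0.86 times the air mean on the WT smoke arrays. Of the 14 kept genes of this list, 1 was called higher, the integrin gene Itgax (log2 0.84, limma adjusted p = 0.00988). The class II genes Cd74 (log2 -0.97, limma adjusted p = 0.00819) and H2-Ab1 (log2 -0.85, limma adjusted p = 0.0112) were called lower. These 3 calls were 21.4% of the list, the same share as the 21.4% of all kept genes called in either direction. In contrast, 8 proliferation genes summed to 1.57 to 1.67 times the air mean. Of 7 kept proliferation genes 3 were called higher (42.9%), against 11.1% of all kept genes. The 11 genes of isolation stress summed to 0.70 to 0.71 times, with 2 called higher and 3 called lower (45.5% called). In Spp1-/- smoke the sums stood at 0.28 to 0.36 times for epithelium, 0.17 to 0.22 times for endothelium and up to 1.05 times for macrophage genes. The part of these shifts in the differences of the glycolytic genes was not tested.

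**Figure D4:**
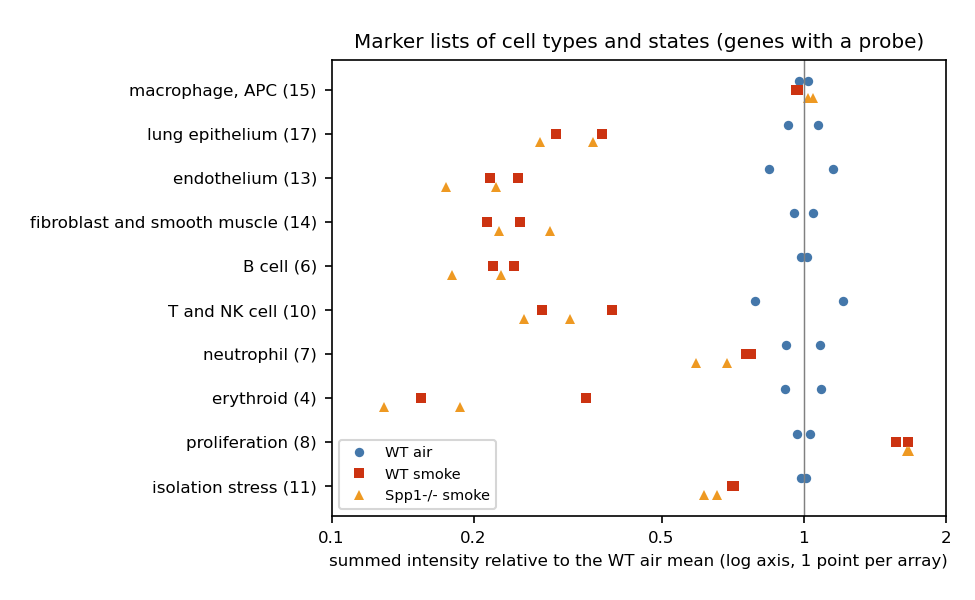
Summed linear intensity of each marker list on each array, relative to the mean of the WT air arrays (horizontal log axis, 1 point per array, number of genes with a probe in brackets). Both smoke groups lie at or below 0.39 of the air mean for epithelium, endothelium, fibroblast, B cell, T and NK cell and erythroid genes, near 1 for macrophage genes and at 1.57 or more for proliferation genes.

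The second comparison set Spp1-/- smoke against WT smoke, and asked whether mice without osteopontin differed in these genes when both had been given smoke. None of the 27 kept members was called, nor was any of the 12382 kept genes (0% called). At an unadjusted limma p under 0.05 there were 2 members, both lower in Spp1-/- smoke, where 1.66% of all kept genes were lower and 2.71% higher by that rule, 540 genes in all. The median over the 27 kept members was -0.051 and the median over all kept genes -0.0031, and 19 of the 27 members (70.4%) and 51.0% of all kept genes had negative differences. No limma adjusted p of a member was below 0.9997. Neutrophil genes summed to 0.59 to 0.69 times the air mean in Spp1-/- smoke against 0.76 to 0.77 times in WT smoke, and their part in the genotype differences was not tested.

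Both members with a small unadjusted p were among those raised in smoke. The WT smoke arrays enter both comparisons with opposite sign, so this coincidence is no independent evidence. Slc2a1 stood at 11.24 ± 0.14 in WT smoke and 10.81 ± 0.08 in Spp1-/- smoke, a difference of -0.43 with a 95% interval from -0.79 to -0.07 before any adjustment for the number of genes. Gapdh stood at 13.84 ± 0.04 and 13.60 ± 0.04, a difference of -0.25 with an interval from -0.48 to -0.01. The arrays of the 2 groups did not overlap for 8 of the 27 kept members (29.6%), against 37.8% of all kept genes. Those lower in Spp1-/- smoke were Slc2a1, Gapdh, Eno2, Hk3, Pfkp and Slc16a3, and those higher were Pfkfb3 and Pfkfb4. Eno2 differed by -0.25 (interval -0.58 to 0.081) and Hk3 by -0.27 (interval -0.57 to 0.029). Aldoc differed by 0.024 (interval -0.22 to 0.27), Pgam1 by 0.035 (-0.29 to 0.36), Pgk1 by 0.085 (-0.28 to 0.45) and Ldha by -0.091 (-0.39 to 0.21), and the arrays of these 4 genes overlapped.

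The kept pentose phosphate members were all lower in Spp1-/- smoke by the means of their brightest probes, and none was called. Of all kept genes 51.0% had negative differences. Pgls, Tkt, Taldo1, Rpia and Rpe differed by -0.12, -0.13, -0.014, -0.051 and -0.32. The other, dimmer probes of Tkt went the other way, by 0.43, 0.16 and 0.18. Those of Pgls differed by -0.012 and -0.43 and that of Rpe by -0.0027. Pfkm differed by -0.15 (interval -0.88 to 0.59), Aldoa by -0.22 (-0.94 to 0.50) and Pkm by -0.019 (-0.47 to 0.43). Egln3 had the widest interval, from -1.01 to 1.99 around 0.49. Among the lists of other genes of glucose metabolism, 0 genes were called between the genotypes. Stbd1, a glycogen-binding protein gene, had the smallest p among them, at 8.01 ± 0.26 in Spp1-/- smoke and 9.30 ± 0.01 in WT smoke (limma adjusted p = 0.293).

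The third comparison set Spp1-/- smoke against WT air, where genotype and exposure differ together and their parts cannot be told apart. It shares its arrays with the other comparisons, so its values are given beside theirs and are no independent evidence. The 8 members called higher were the ones called in WT smoke, 29.6% of the 27 kept members against 12.2% of all kept genes called higher. Members called lower numbered 0, against 10.5% of all kept genes, and 22.6% of kept genes were called in either direction. At an unadjusted p under 0.05, 10 of the 27 kept members were higher, against 20.4% of all kept genes, and 2 were lower, against 15.1%. The median difference was 0.29 over the 27 kept members and 0.040 over all kept genes. Aldoc differed by 1.72 here and 1.69 in WT smoke, Pgam1 by 1.499 and 1.46, Pgk1 by 1.20 and 1.11, Eno2 by 1.49 and 1.74, Slc2a1 by 1.16 and 1.59, Gapdh by 0.94 and 1.18, Ldha by 0.57 and 0.66, and Hk3 by 0.47 and 0.74. Limma adjusted p-values here ran from 0.00184 for Aldoc to 0.0446 for Hk3. Of the 15 alternative fits, Aldoc, Gapdh, Pgam1 and Eno2 stayed called in all 15, Pgk1 in 14 and Slc2a1 in 13. Ldha stayed called in only 7 and Hk3 in only 3, each being lost in 5 of the 6 fits that left out 1 array. Leaving out either WT smoke array gave the same values as the fit on the compared groups alone, so these are not separate checks. With the replicate number as a block the count was 6 members, against 2367 of all 12382 kept genes. Hk3 and Ldha were lost there (limma adjusted p = 0.0606 and 0.0507).

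Single arrays mattered here too. The median member difference was 0.32 without Spp1-/- smoke replicate 1 and 0.22 without replicate 2. Aldoc, Gapdh, Pgam1 and Eno2 stayed called in both fits. Slc2a1 missed the threshold in both (limma adjusted p = 0.0552 and 0.0535), and Pgk1 without replicate 2 (limma adjusted p = 0.0526). Without WT air replicate 1 the median member difference was 0.23, against 0.29 with all arrays. Pfkm, at 9.43 ± 0.56 in WT air and 8.34 ± 0.23 in Spp1-/- smoke, was not called (limma adjusted p = 0.0523). With each array left out in turn its difference ranged from -1.48 to -0.69. With all arrays, Pfkm was called lower among the brighter 25% of probes (limma adjusted p = 0.0244). It was also called lower with the mean of its probes, a trended and robust prior and the floor subtracted (limma adjusted p = 0.0437, 0.0458 and 0.0430). Tkt stood at 12.93 ± 0.15 and 12.45 ± 0.07 (limma adjusted p = 0.0643), while its other, dimmer probes went the other way, by 0.36, 0.13 and 0.13.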

How the data were processed

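The values used were the log2 intensities of 45281 probes on 6 arrays as deposited by the authors. Per the submitters' processing notes limma was used (version not given), while the sources used here do not state a background correction. Once sorted, any pair of columns agreed to within 0.00562, which is how quantile normalization leaves arrays. Another 12 deposited columns could not be tied to samples by name and stayed unused, so detection was not assessed. Probe symbols came from the platform annotation and were brought up to date through RefSeq (GRCm38.p6) by Entrez identifier; 34885 had 1 symbol, 18 several and 10378 none. Each gene was read from its brightest probe.

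The fit was limma 3.58.1 in R 4.3.3 with 1 coefficient per group over all 6 arrays and empirical Bayes variances (3 residual and 2.24 prior degrees of freedom). Benjamini-Hochberg adjustment ran over the 12382 kept genes, with calls under 0.05. With 2 arrays a group, the smallest exact permutation p is 0.333, so none was computed. The number of arrays limits the precision. The steps were tested on simulated data.

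The members and lists were chosen with earlier results of these data known. Named with values on each array were called members, the 6 uncalled members of largest difference and 5 fixed genes (Hif1a, Egln3, G6pdx, Ldha and Slc2a1). Of each further list at most 4 genes were named, by smallest p. Alternatives were no filter, a filter keeping 25% of probes, averaging a gene's probes, array weights and a trended and robust prior. Others were the replicate number as a block, centring on the kept genes, and subtracting the floor and adding 16. Further ones were a fit on the compared groups alone, a 2-fold threshold and each array left out. Leaving out either array of the group outside a comparison gave the same values as the fit on the compared groups alone. Counts of alternative fits and of left-out arrays thus hold that fit more than once.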

Additional observations from a re-analysis of the deposited data

How the results depend on the processing

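Of 138 recomputed counts and medians, 114 stayed within 1.5 times the reported count or within 1 SD of the reported median. With only the 2 groups compared in the fit, 1489 genes were called in WT smoke against WT air, 6 in Spp1-/- smoke against WT smoke and 1842 in Spp1-/- smoke against WT air. The cause was not tested. Between the genotypes, 8 genes were called among the brighter 25% of probes, 7 with an intensity trend and robust prior and 9 with array weights, where 540 genes had an unadjusted p under 0.05 in the reported fit. No member was called between the genotypes under any of these alternatives. The member median in WT smoke against WT air was 0.26 with no filter, 0.54 with the stricter filter and 0.23 with the mean of a gene's probes, and in Spp1-/- smoke against WT air 0.42 with the stricter filter, because other members or probes then enter. At a 2-fold threshold 6 members were called in WT smoke and 5 in Spp1-/- smoke against air. The count of all kept genes at that threshold is not given here, so these member counts have no background beside them. With each array left out in turn, called genes ranged from 743 to 3858 in WT smoke against WT air, from 0 to 6 between the genotypes and from 673 to 4035 in Spp1-/- smoke against WT air. Called members ranged from 5 to 12, from 0 to 0 and from 4 to 12.

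The values that changed sign were mostly near 0, but not all. In the reported fit Egln3 differed by 0.63 in WT smoke against WT air and by 0.49 between the genotypes. Aldoa differed by 0.31 in Spp1-/- smoke against WT air. Between the genotypes, Pgam1 was -0.075 with the mean of its probes. With each array left out, the genotype differences ranged from -0.0024 to 0.051 for Aldoc, from -0.045 to 0.22 for Pgk1, from -0.067 to 0.14 for Pgam1, from -0.21 to 0.027 for Ldha, from -0.31 to 0.016 for Pfkm, from -0.12 to 0.018 for Rpia, from -0.18 to 1.15 for Egln3, from -0.29 to 0.058 for Pgls, from -0.10 to 0.065 for Pkm and from -0.061 to 0.059 for Hif1a. In WT smoke against WT air they ranged from -0.035 to 1.30 for Egln3 and from -0.076 to 0.044 for Hif1a, and in Spp1-/- smoke against WT air from -0.069 to 0.68 for Aldoa and from -0.074 to 0.040 for Hif1a. The cause was not tested.

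The groups share replicate numbers, but the differences between replicates 1 and 2 correlated across genes by only 0.14 (WT air and WT smoke), -0.029 (the smoke groups) and -0.082 (WT air and Spp1-/- smoke), so the numbers were not taken as pairs. With the replicate number as a block, 8 members were called in WT smoke against WT air, 0 between the genotypes and 6 in Spp1-/- smoke against WT air. Of all 12382 kept genes, 2248, 0 and 2367 were called in those fits. Signals of the table without matched columns and slide or scan date were not run as alternatives. Dim probes limit Hif1a, Hk1, Slc16a1 and Pgd, whose values lie near the median of all probes.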

Other observations

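WT air replicates differed most for members that were not called: Pfkm by 0.56, Pdk1 by 0.55, Aldoa by 0.53, Pdha1 by 0.52 and Rpia by 0.47 (SD, n = 2). For the 8 called members the SD in WT air lay between 0.03 and 0.20. That spread enters the limma test, so a low SD favours a call and this contrast is partly set by the selection. Aldoa and Pfkm were brighter on WT air replicate 2, while Pdk1, Pdha1 and Rpia were brighter on WT air replicate 1.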
